A study of Mus musculus with 19 samples.

Results

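The lysosomal cathepsins and legumain are the proteases that digest proteins inside lysosomes, and 10 of them were followed here by gene symbol in cultured mouse microglia: Ctsa, Ctsb, Ctsc, Ctsd, Ctsh, Ctsk, Ctsl, Ctss, Ctsz and Lgmn. They are 10 of the 16941 genes in the count tables, and all 10 passed the filter on low counts, which kept 14113 genes for testing. The data are 3′ end RNA sequencing libraries of microglia, the macrophages of the brain, isolated from the cortex of C57BL/6 mice at 10 to 11 months of age. Each library belongs to 1 of 4 groups: microglia of APP mice given lipopolysaccharide (LPS), APP with vehicle, wild type (WT) with LPS (n = 5 each), and WT with vehicle (n = 4). APP mice are the hAPPJ20 line, in which a PDGF promoter, active mainly in neurons, drives human amyloid precursor protein with the Swedish and Indiana mutations. All groups shared 4 weeks in culture, in medium that held 10% serum and M-CSF, a macrophage growth factor, at 5 ng/mL. LPS, which comes from the outer membrane of Gram-negative bacteria and is sensed by Toll-like receptor 4, was given at 100 ng/mL for 6 h, the vehicle was medium, and both were followed by 16 h of recovery.

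Cathepsins are made as inactive precursors, tagged with mannose 6-phosphate, carried to the endosome and cut into active enzymes at acid pH. Most are cysteine proteases, which legumain, itself a cysteine protease that cuts after asparagine, can help to mature. Ctsd is an aspartic protease and Ctsa a serine carboxypeptidase. In microglia and other macrophages these enzymes break down engulfed material and trim antigens and their invariant chain, and cystatins hold the cysteine cathepsins in check.

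Levels are given as CPM, a gene's count put on the same library total throughout, after the trimmed mean of M values scaling. Each read of a 3′ library marks a transcript end, and the counts were not divided by gene length. Tests compare CPM within a gene only, and sums, ratios and rankings over genes are given as a description. Fold changes and p-values are from edgeR's quasi-likelihood test with Benjamini-Hochberg adjustment over the 14113 genes, and the threshold for a call was an adjusted p of 0.05. A log2 change is given ± its standard error, and a negative value means lower with LPS, or lower in APP.

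The libraries were 13065257 to 31248988 counts deep, and 4 of them stood apart. Libraries numbered 57 to 60, which are the fifth replicates of APP LPS, APP vehicle and WT LPS and the fourth of WT vehicle, held 1361 to 2762 CPM summed over the 19 measured microglia and macrophage identity genes, against 4954 to 10026 CPM in the other 15 libraries. The same 4 libraries held 2686 to 5779 CPM over the 21 measured fibroblast, pericyte and smooth muscle genes, against 1296 to 4620 CPM in the other 15. General macrophage genes such as Csf1r (52.3 to 343 CPM) and Tyrobp (160 to 1580 CPM) were counted in every library, as was the collagen-binding proteoglycan gene Dcn (555 to 2461 CPM). The markers of homeostatic microglia P2ry12 and Tmem119 were low, at 0 to 28.6 CPM and 0 to 17.2 CPM. In bulk RNA, fewer cells of a type and less RNA per cell cannot be told apart. As a check of the treatment, all 10 LPS-response genes listed, among them the cytokine genes Il1b, Tnf and Il6, rose with LPS in APP in the fit with library pairs described next.

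Libraries carry numbers, and a vehicle library and the LPS library with the next number form a pair in 5 cases in APP and 4 in WT. WT LPS replicate 1 has no partner. In APP the deviations of paired libraries from their group means were correlated in every pair (r = 0.13 to 0.35 across genes), so for APP both fits are given. The pair fit ran over all 19 libraries and took the WT pairs as blocks too. For the members called in APP, fits of the APP libraries alone are given beside it. In WT 1 pair missed the limit of 0.1, and WT values within pairs are given as a description. No label says that a pair shares an animal or a culture.

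Ctsd, which encodes the main aspartic endopeptidase of lysosomes, stood at 1913, 1765, 1095, 1414 and 599 CPM in APP LPS replicates 1 to 5, against 3354, 2804, 2469, 2018 and 939 CPM in APP vehicle replicates 1 to 5. The gene stood at 2438, 1612, 1419, 2059 and 1435 CPM in WT LPS replicates 1 to 5, against 2644, 2357, 2246 and 1782 CPM in WT vehicle replicates 1 to 4. The groups overlapped in both genotypes, and in APP each LPS library lay below the vehicle library of its own pair, including the low pair 59 and 60. Group means were 1357 ± 530 CPM in APP LPS and 2317 ± 912 CPM in APP vehicle (SD, n = 5 each), and 1793 ± 444 CPM in WT LPS (n = 5) and 2257 ± 359 CPM in WT vehicle (n = 4).

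Over the groups alone the log2 change of Ctsd with LPS in APP was -0.77 ± 0.30 (edgeR adjusted p = 0.956), which was not called. With the pair as a block Ctsd fell in APP by 0.76 ± 0.12 on the log2 scale (edgeR adjusted p = 0.00433). The pair values in APP were -0.81, -0.67, -1.17, -0.51 and -0.65. The call held when each of the 9 pairs was left out in turn (edgeR adjusted p = 0.00193 to 0.0454), without libraries 57 to 60 (edgeR adjusted p = 0.00302) and with the APP libraries fitted alone (edgeR adjusted p = 0.00964, or 0.0377 with a filter of their own). It was lost in limma voom with the pair as a random effect, where Ctsd stood at -0.76 ± 0.23 (limma voom adjusted p = 0.272). It was also lost in edgeR with a block by title number, which called 0 genes in APP. That block holds the same APP pairs but joins them to the WT libraries of the same title number. In WT, the pair values of Ctsd were -0.71, -0.73, -0.13 and -0.31, and the group fit gave -0.33 ± 0.32 (edgeR adjusted p = 1).

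Ctsa encodes the serine carboxypeptidase that also stabilises the lysosomal enzymes β-galactosidase and neuraminidase. Its levels were 236, 220, 173, 126 and 77.2 CPM in APP LPS replicates 1 to 5, against 333, 281, 296, 268 and 117 CPM in APP vehicle. They were 326, 318, 233, 221 and 148 CPM in WT LPS replicates 1 to 5, against 417, 287, 223 and 174 CPM in WT vehicle replicates 1 to 4. The LPS and vehicle groups overlapped in both genotypes, in APP through the low vehicle library of pair 59 and 60. With the pair as a block Ctsa fell in APP by 0.66 ± 0.13 on the log2 scale (edgeR adjusted p = 0.0185), while the group fit gave -0.64 ± 0.32 (edgeR adjusted p = 1). The call was lost on leaving out pair 3 and 4, 7 and 8, 11 and 12 or 51 and 52 (edgeR adjusted p = 0.0506, 0.0566, 0.106 and 0.0853) and when the APP libraries were fitted alone (edgeR adjusted p = 0.0588, or 0.118 with a filter of their own). It was also lost in limma voom with the pair as a random effect (-0.64 ± 0.26, limma voom adjusted p = 0.409) and under the block by title number. Pair values of Ctsa were -0.50, -0.35, -0.78, -1.09 and -0.60 in APP and -0.39, -0.31, -0.01 and -0.24 in WT.

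Ctsd and Ctsa were the 2 members called among the 83 genes (0.588% of those tested) called with LPS in APP in the pair fit, where 41 genes (0.291%) were called lower. Among genes with a mean of at least 100 CPM, 1.35% were called lower. In that fit the median log2 change over all genes tested was -0.11, and the median over the 10 members was -0.23. There 58.7% of all genes tested and 7 of the 10 members were below 0. At an unadjusted p under 0.05 that fit had 1085 of 14113 genes and 5 of the 10 members. Without the block, edgeR called 0 genes (0%) and 0 members, with 679 genes and 1 member, Ctsd, at an unadjusted p under 0.05. DESeq2, also without pairs, called 76 genes, none of them a member. Limma voom, which took the pair as a random effect, called 9 genes and no member. Marker lists of cell types also lay below 0 in the edgeR pair fit in APP, with a median log2 change of -0.41 over 19 microglia and macrophage identity genes (14 below 0, 12 at an unadjusted p under 0.05) and of -0.61 over 19 fibroblast, pericyte and smooth muscle genes (17 below 0, 6 at an unadjusted p under 0.05). Both medians were further below 0 than that of the members, and the part of these cells in the result was not tested.

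Windows before annotated starts of these genes are shown because the CLEAR element, the site of the lysosomal transcription factors TFEB and TFE3, contains the letters CACGTG. Windows are the 250 bases before a RefSeq start (GRCm38.p6), 5′ to 3′ on the gene's strand, with CACGTG in capitals. Ctsd (chr7:142387828-142388077, minus strand) and Ctsa (chr2:164833523-164833772, plus strand, the second of its starts) are genes that were called. Ctsl (chr13:64370521-64370770, minus strand) and Ctss (chr3:95526536-95526785, plus strand) were not called and are given beside them.
Ctsd: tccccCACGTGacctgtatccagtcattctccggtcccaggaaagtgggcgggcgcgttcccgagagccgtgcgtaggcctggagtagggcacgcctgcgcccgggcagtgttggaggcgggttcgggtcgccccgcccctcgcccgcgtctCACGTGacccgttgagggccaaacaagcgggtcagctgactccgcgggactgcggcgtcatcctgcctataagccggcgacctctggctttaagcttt
Ctsa: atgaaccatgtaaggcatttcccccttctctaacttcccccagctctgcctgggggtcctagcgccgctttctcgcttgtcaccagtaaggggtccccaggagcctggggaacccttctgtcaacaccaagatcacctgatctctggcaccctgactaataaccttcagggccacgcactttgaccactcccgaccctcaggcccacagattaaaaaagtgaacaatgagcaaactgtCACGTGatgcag
Ctsl: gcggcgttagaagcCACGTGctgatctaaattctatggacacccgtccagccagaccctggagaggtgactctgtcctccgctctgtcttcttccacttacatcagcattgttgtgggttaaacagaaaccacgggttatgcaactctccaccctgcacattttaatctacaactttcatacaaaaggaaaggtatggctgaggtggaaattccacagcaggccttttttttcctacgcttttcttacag
Ctss: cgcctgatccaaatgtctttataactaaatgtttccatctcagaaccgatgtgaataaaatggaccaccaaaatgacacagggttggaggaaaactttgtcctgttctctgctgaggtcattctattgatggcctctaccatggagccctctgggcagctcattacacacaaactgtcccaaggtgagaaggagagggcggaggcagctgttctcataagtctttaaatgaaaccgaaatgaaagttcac
CACGTG, which reads the same on both strands, began 245 and 98 bases before the Ctsd start, 12 bases before the second Ctsa start and 236 bases before the Ctsl start, and the letters are not in this window of Ctss. Of the 10 members, 8 had an entry, with 10 windows between them. CACGTG was found in 4 of these 8 genes, the fourth being Lgmn, 49 bases before its second start, and in 6.86% of all 27025 genes with an entry. The letters are not in the windows of the first starts of Ctsa and Lgmn, so that 4 of the 10 windows hold them, beside 6.02% of all windows. The longer TCACGTG, which overlaps it and was searched on both strands (also as CACGTGA), was in 3 of the 8 (Ctsa, Ctsd and Lgmn) and in 3.58% of all genes. GAGGAAG, a core of sites of the myeloid factor PU.1, also searched as CTTCCTC, was in 2 of the 8 (Ctsc and Ctsk) and in 12% of all genes. By the gene bounds of GENCODE M21, the windows of Ctsl and of the second starts of Ctsa and Lgmn lie inside the gene, past its 5′ end. The Ctsd window runs across that end, and the Ctss window ends just before it. Whether the inner windows act as promoters was not tested. Ctsl holds CACGTG and was not called, and a match of letters is a description, not a bound site.

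**Figure D1:**
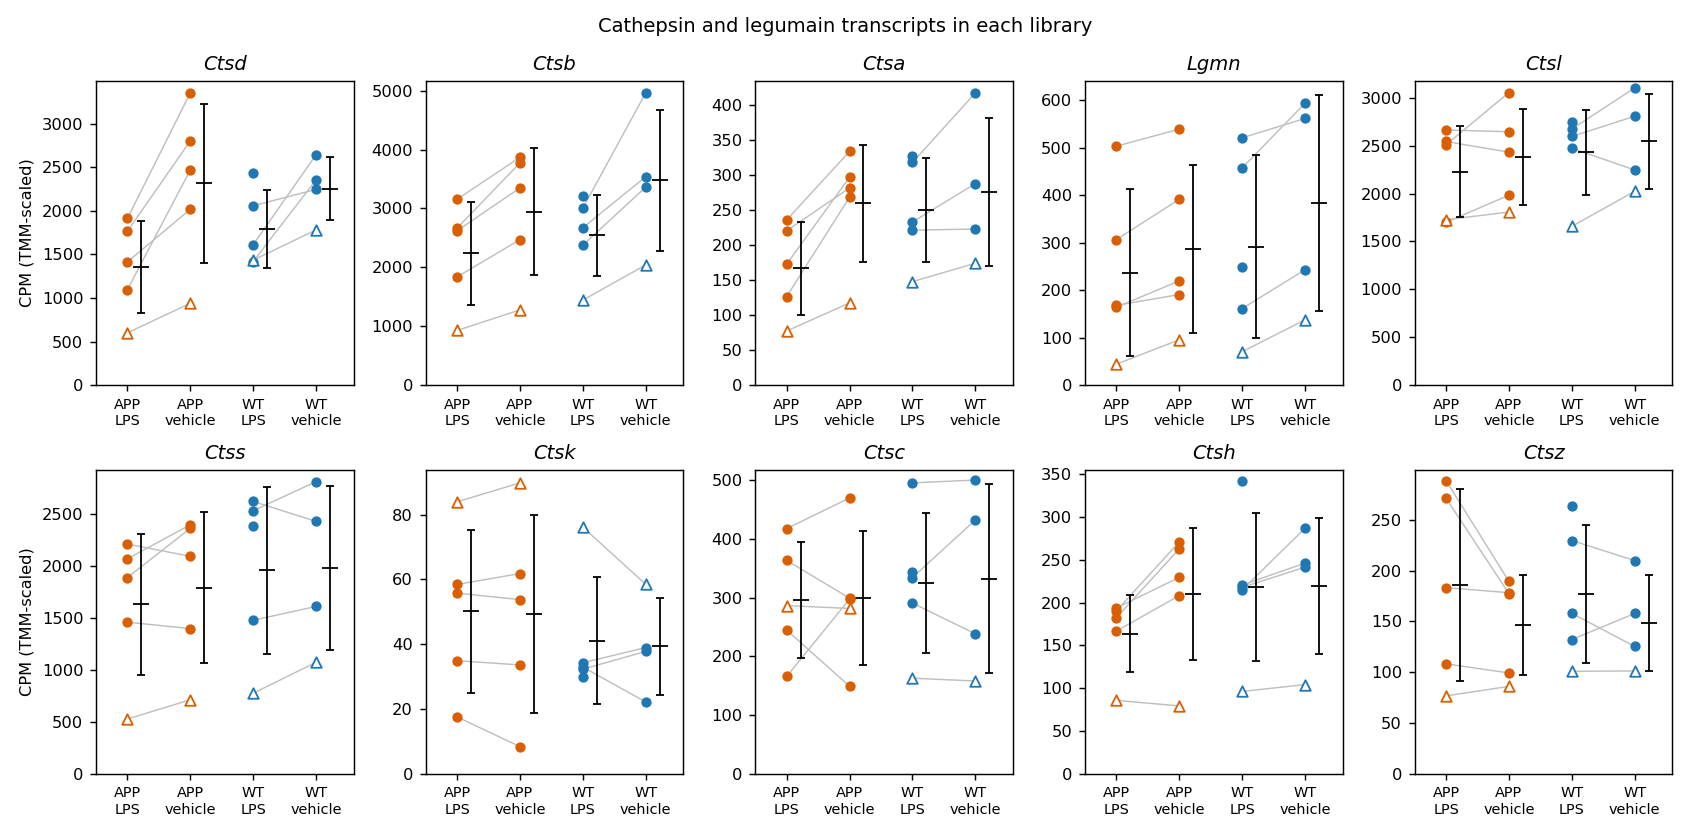
CPM of each of the 10 genes (vertical axes, from 0) in every library, with the LPS and vehicle groups of APP left of those of WT. Points are libraries, open triangles libraries 57 to 60, grey lines join pairs and black bars are means ± SD; the grey lines of Ctsd in APP all run lower on the LPS side, where libraries lie at 599 to 1913 CPM, against 939 to 3354 CPM with vehicle.

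Ctsb encodes an abundant cysteine protease that acts as endopeptidase and as dipeptidyl carboxypeptidase. It stood at 3155, 2666, 2620, 1836 and 926 CPM in APP LPS replicates 1 to 5, against 3868, 3773, 3348, 2470 and 1277 CPM in APP vehicle. In WT it stood at 3210, 3003, 2376, 2671 and 1442 CPM with LPS and at 4963, 3362, 3539 and 2041 CPM with vehicle. The groups overlapped in both genotypes, and the libraries of pairs 57 and 58 and 59 and 60 were the lowest of their groups. Its pair values were the most alike of the 10 genes (SD 0.12 over 9 pairs), at -0.29, -0.50, -0.35, -0.43 and -0.46 in APP and -0.72, -0.50, -0.41 and -0.50 in WT. Even so Ctsb missed the threshold in APP in both fits, with -0.40 ± 0.33 in the group fit (edgeR adjusted p = 1) and -0.41 ± 0.09 in the pair fit (edgeR adjusted p = 0.0507). It passed in the pair fit without WT pair 9 and 10 or 21 and 22 (edgeR adjusted p = 0.0358 and 0.048). The group fit in WT gave -0.45 ± 0.35 (edgeR adjusted p = 1).

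Lgmn, which encodes legumain, varied most between libraries of the 10 genes, with a coefficient of variation of 61.8% over the 19 libraries. It stood at 168, 164, 503, 306 and 43.8 CPM in APP LPS replicates 1 to 5, against 191, 219, 539, 391 and 95.4 CPM in APP vehicle. In WT it stood at 248, 521, 161, 457 and 70.2 CPM with LPS and at 562, 243, 594 and 137 CPM with vehicle. The groups overlapped almost completely, while within each pair the LPS library was the lower. Pair values were -0.18, -0.42, -0.10, -0.35 and -1.12 in APP and -0.11, -0.59, -0.38 and -0.97 in WT, so that the largest differences fell in libraries 57 to 60. Neither fit called Lgmn in APP, with -0.28 ± 0.57 in the group fit (edgeR adjusted p = 1) and -0.43 ± 0.15 in the pair fit (edgeR adjusted p = 0.34). The pair value in APP became -0.27 ± 0.14 without libraries 57 to 60 (edgeR adjusted p = 0.645).

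Ctsa, Ctsb, Ctsd and Lgmn were lower with LPS in 9 of 9 pairs, as were 1.06% of all genes tested and 3.02% of genes with a mean of at least 100 CPM. For Ctsa this count depended on the scaling, since its WT pair 41 and 42 gave 0.04 on the log2 scale when libraries were scaled by their totals alone. In APP the same 4 genes were lower in 5 of 5 pairs, beside 4.99% of all genes tested. In WT these and Ctsh were lower in 4 of 4 pairs, beside 6.6% of all genes tested. No member was higher with LPS in 9 of 9 pairs, beside 0.935% of all genes tested. These are shares of genes that vary together across the same libraries, and they are given with no test.

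**Figure D2:**
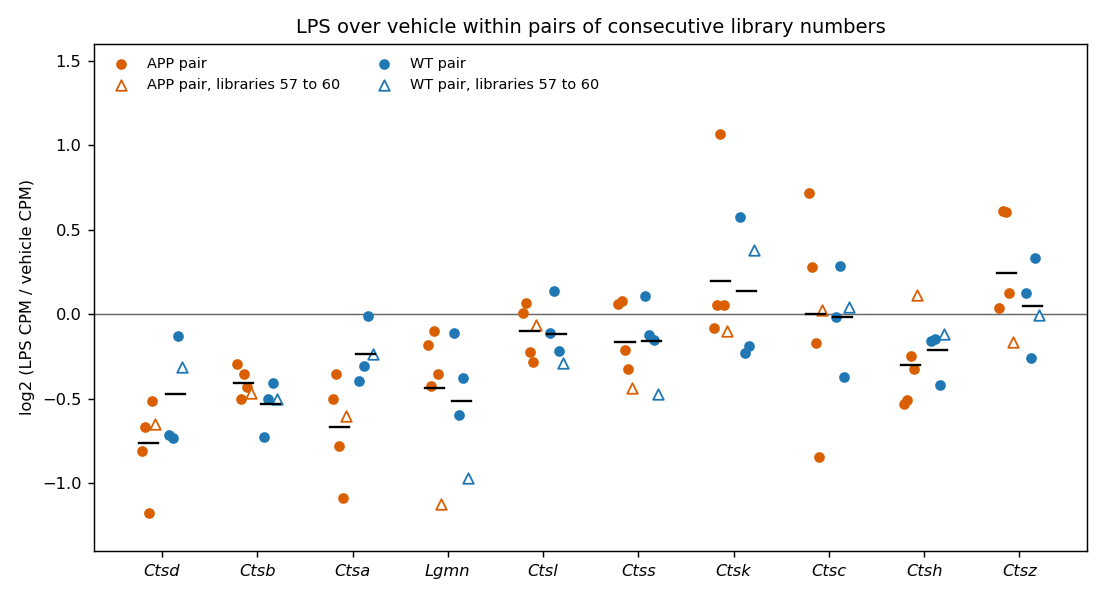
Log2 of LPS CPM over vehicle CPM (vertical axis) within the 5 APP pairs (left of each gene) and 4 WT pairs (right), with black lines at the means and open triangles for the pairs of libraries 57 to 60. Points of Ctsd, Ctsb, Ctsa and Lgmn all lie below 0, whereas those of Ctsk, Ctsc and Ctsz lie on both sides.

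Ctsl and Ctss encode endopeptidases that degrade the invariant chain of MHC class II, Ctss in B cells, dendritic cells and macrophages. Ctsl stood at 1699 to 2664 CPM in APP LPS (median 2509) and 1807 to 3055 CPM in APP vehicle (median 2432), and at 1657 to 2745 CPM in WT LPS and 2024 to 3103 CPM in WT vehicle. It was the steadiest of the 10 genes, with a coefficient of variation of 18.9%. Its log2 change with LPS in APP was -0.10 ± 0.21 in the group fit and -0.10 ± 0.10 in the pair fit (edgeR adjusted p = 1 and 0.92), and the group fit in WT gave -0.07 ± 0.22 (edgeR adjusted p = 1).

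Ctss lay at 527 to 2213 CPM in APP LPS and 713 to 2399 CPM in APP vehicle, and at 775 to 2624 CPM in WT LPS and 1074 to 2815 CPM in WT vehicle. The lowest value of each group came from libraries 57 to 60. The change with LPS in APP was -0.14 ± 0.39 in the group fit and -0.17 ± 0.11 in the pair fit (edgeR adjusted p = 1 and 0.826). The WT value was -0.02 ± 0.41 in the group fit (edgeR adjusted p = 1). Pair values lay on both sides of 0, from -0.47 to 0.11 over the 9 pairs.

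Ctsk, the collagen-degrading endopeptidase known from osteoclasts and fibroblasts, ran the other way across libraries. It lay at 17.5 to 83.9 CPM in APP LPS and 8.36 to 89.8 CPM in APP vehicle, and at 29.9 to 76.1 CPM in WT LPS and 22.1 to 58.5 CPM in WT vehicle, with the highest library of each group among libraries 57 to 60. Its change with LPS in APP was 0.02 ± 0.47 in the group fit and 0.19 ± 0.23 in the pair fit (edgeR adjusted p = 1 and 0.931), and in WT 0.06 ± 0.50 in the group fit (edgeR adjusted p = 1). Ctsk and Ctss are neighbours on chromosome 3 (GRCm38), 17423 bases apart on the plus strand, and their log2 CPM ran against each other across libraries (r = -0.68 over 19 libraries and -0.39 over the 15 other than 57 to 60), a description over libraries that also share pairs.

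Ctsc, Ctsh and Ctsz encode exopeptidases, as Ctsa does. Ctsc, or dipeptidyl peptidase 1, which activates granule serine proteases, lay at 166 to 418 CPM in APP LPS and 149 to 470 CPM in APP vehicle, and its pair values ran from -0.84 to 0.72. Ctsh, an aminopeptidase, lay at 85.8 to 194 CPM in APP LPS and 79.2 to 271 CPM in APP vehicle, and was lower with LPS in 8 of 9 pairs, the exception being pair 59 and 60. Ctsz, a carboxypeptidase also called cathepsin X, lay at 76.7 to 289 CPM in APP LPS and 86.0 to 189 CPM in APP vehicle, and was higher with LPS in 6 of 9 pairs. All 3 overlapped between groups and none was called in APP, with pair-fit changes of 0.00 ± 0.17, -0.30 ± 0.13 and 0.24 ± 0.15 for Ctsc, Ctsh and Ctsz in that order (edgeR adjusted p = 1, 0.549 and 0.788). In WT their group-fit changes were -0.03 ± 0.36, -0.01 ± 0.36 and 0.25 ± 0.37 (edgeR adjusted p = 1 for each).

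**Figure D3:**
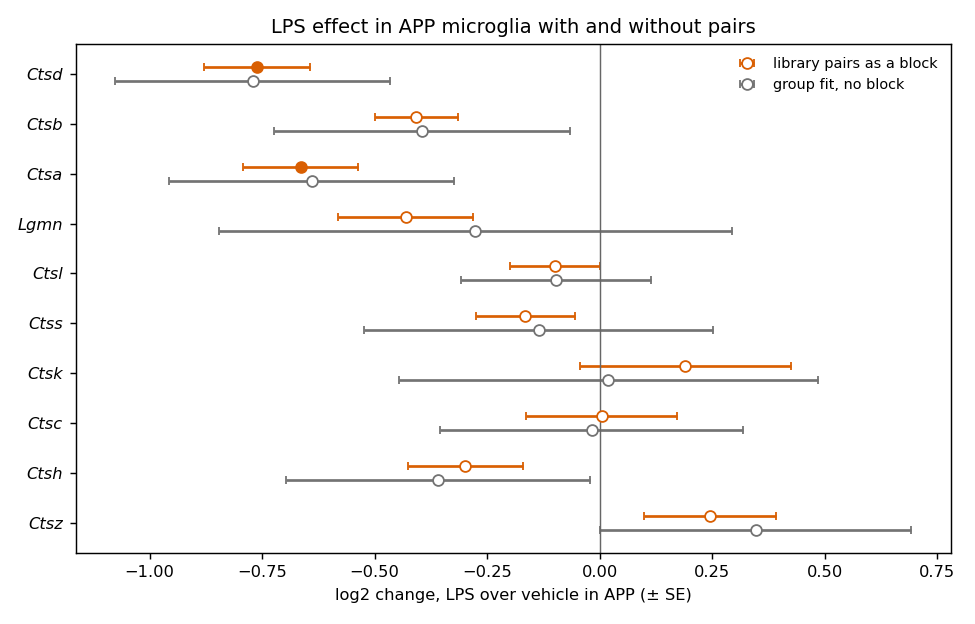
Log2 change with LPS in APP (± standard error) of the 10 genes in the fit with library pairs as a block (orange) and in the group fit (grey), on the horizontal axis; filled markers have an edgeR adjusted p under 0.05. Ctsd at -0.76 and Ctsa at -0.66 are the filled markers, and their group-fit estimates of -0.77 and -0.64 have wider error bars.

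In WT with LPS, edgeR's group fit called 0 genes (0%) and 0 members, with 516 genes and 0 members at an unadjusted p under 0.05, and DESeq2 called 89 genes and limma voom 3, none of them a member. Log2 changes of 8 of the 10 members were below 0 in WT and in APP, beside 50.7% and 53% of all genes tested. Averaged over genotypes the group fit called 3 genes (0.0213%) and 0 members, with 868 genes and 1 member, Ctsd, at an unadjusted p under 0.05. DESeq2 called 178 genes and limma voom 68 there, none of them a member. With the pair block the fit called 21 genes (0.149%) in WT, 4 of them lower (0.0283%) and 1 a member, Ctsb, and 211 genes (1.5%) averaged over genotypes, 96 of them lower (0.68%) and 4 members, Ctsa, Ctsb, Ctsd and Lgmn. As 1 WT pair missed the limit for pairing, these counts are given as an alternative only. No member's LPS and vehicle groups were free of overlap, beside 0.333% of genes lower and 0.255% higher without overlap in APP and 0.581% and 0.723% in WT.

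Whether LPS acted differently in APP and WT was tested as an interaction, and 0 genes (0%) were called in either fit. The interaction of Ctsd was -0.44 ± 0.44 (edgeR adjusted p = 1) and that of Ctsa -0.50 ± 0.46 (edgeR adjusted p = 1) in the group fit. With the pair block they were -0.29 ± 0.17 and -0.43 ± 0.19 (edgeR adjusted p = 1 for each, with unadjusted p = 0.114 and 0.0371). At an unadjusted p under 0.05 the group fit had 385 genes and 0 members, and DESeq2 called 99 genes and limma voom 0, none of them a member. With the pair block 277 genes and 1 member, Ctsa, were at an unadjusted p under 0.05. A difference between the genotypes in the response of Ctsd or Ctsa was therefore not called.

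The ratio of Ctsd to Ctsl within a library sets a gene that fell in APP against the steadiest member. It was 0.718, 0.694, 0.644, 0.564 and 0.347 in APP LPS libraries, against 1.27, 1.15, 1.25, 0.661 and 0.519 in the APP vehicle libraries of their pairs. In WT it was 0.621, 0.574, 0.770 and 0.866 in LPS libraries, against 0.942, 1.05, 0.724 and 0.880 in the vehicle libraries of their pairs. The ratio was lower with LPS in 5 of 5 APP pairs and in 3 of 4 WT pairs, the exception being pair 41 and 42. Both genes were picked by these same values, so the ratio in APP largely restates the lower Ctsd within pairs. It shows unequal change of the pair of genes and was given no test.

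**Figure D4:**
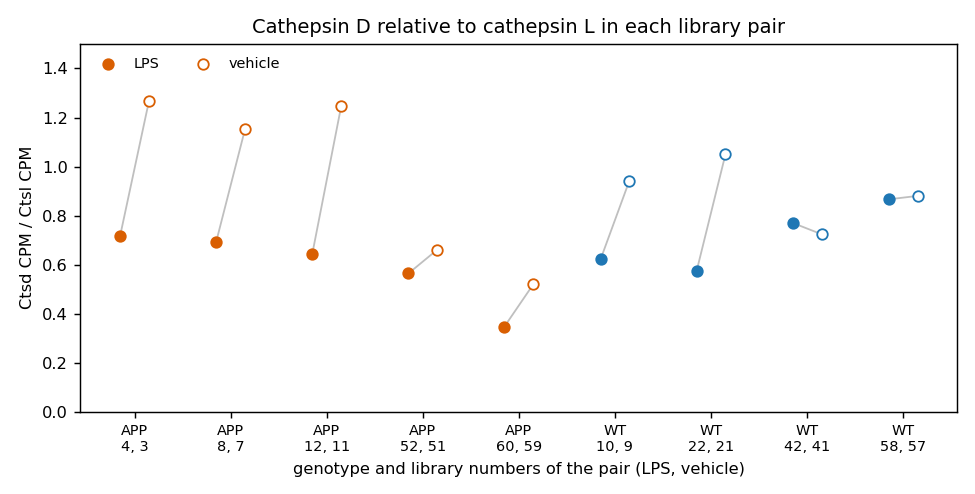
Ratio of Ctsd CPM to Ctsl CPM (vertical axis, from 0) in the LPS library (filled) and vehicle library (open) of each pair, APP in orange left of WT in blue, with library numbers below. The ratio with LPS lies below that with vehicle in every APP pair and in all WT pairs but 42 and 41.

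Between genotypes no member was called, averaged over treatments or within either. Levels averaged over treatments differed by -0.33 ± 0.23 for Ctsa, -0.36 ± 0.41 for Lgmn, -0.21 ± 0.24 for Ctsb, -0.18 ± 0.22 for Ctsd and 0.31 ± 0.34 for Ctsk (log2, APP against WT; edgeR adjusted p = 1 for each). The others were -0.24 ± 0.25 for Ctsh, -0.20 ± 0.28 for Ctss, -0.14 ± 0.24 for Ctsc, -0.11 ± 0.15 for Ctsl and 0.02 ± 0.25 for Ctsz (edgeR adjusted p = 1 for each). The averaged comparison called 0 of 14113 genes (0%) with edgeR, with 486 genes and 0 members at an unadjusted p under 0.05, 107 with DESeq2 and 0 with limma voom. Within LPS edgeR called 0 genes (0%; 482 at an unadjusted p under 0.05), DESeq2 69 and limma voom 0, and within vehicle edgeR called 0 (0%; 402), DESeq2 64 and limma voom 0, with no member among any of these. No member was free of overlap between APP and WT, beside 0.333% of genes lower and 0.163% higher in APP after LPS and 0.368% and 0.475% with vehicle.

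In the order of the 4 group means, APP LPS was the lowest for 8 of the 10 genes, all but Ctsk and Ctsz. Library 60, which is APP LPS replicate 5, was the lowest of all 19 for Ctsa, Ctsb, Ctsd, Ctss, Lgmn and Ctsz. Of the 30 pairs of neighbours in the orders of the group means, 2 differed by more than the larger of their SDs. Neither count was made over all genes tested, so both are a description only. The 2 that differed were APP LPS below WT LPS for Ctsa and WT LPS below WT vehicle for Ctsd, whose means stand above. Ctsa averaged 166 ± 65.8 CPM in APP LPS and 249 ± 74.2 CPM in WT LPS (SD, n = 5 each). Neither difference was called in the group fit.

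Libraries 57 to 60 were also set against the rest. Summed over the 10 genes the level was 4434 to 7654 CPM in libraries 57 to 60, against 8558 to 14804 CPM in the other 15. Ctss, Ctsh and Lgmn lay below all other libraries in these 4, as did 2.18% of all genes tested and 9.22% of genes with a mean of at least 100 CPM. The ranges of the other members overlapped, and the lowest Ctsc value, 149 CPM, was that of APP vehicle replicate 1. Mean levels in the 4 libraries were 772 CPM for Ctss, 91.3 CPM for Ctsh and 86.7 CPM for Lgmn, against 2119, 232 and 351 CPM in the other 15. Ctsk was 2.09 times as high there, at 77.1 CPM against 36.8 CPM, and Ctsl 0.709 times, at 1804 CPM against 2545 CPM. The macrophage marker sum was also lower in these 4 libraries (mean 2138 CPM, against 7751 CPM in the other 15). The mesenchymal marker sum was higher there (mean 4118 CPM against 2417 CPM), with overlap between the ranges. The part of these markers in the levels was not tested.

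Summed marker levels, in which abundant genes weigh most, were also compared within pairs. The sum over the 10 genes changed by -0.39 to -0.24 (log2, LPS against vehicle) over the 9 pairs, and the macrophage identity sum by -0.58 to 0.07. In APP the macrophage sum changed by 0.02, -0.10, -0.01, -0.25 and -0.58 in pairs 3 and 4, 7 and 8, 11 and 12, 51 and 52, and 59 and 60, where Ctsd changed by -0.81, -0.67, -1.17, -0.51 and -0.65. The macrophage sum was lower with LPS in 4 of these 5 pairs and Ctsd in 5 of 5. Fibroblast, pericyte and smooth muscle sums changed by -0.24 to 0.21 over the 9 pairs. Of the 19 macrophage identity genes tested, the pair fit in APP called C1qc and Trem2 lower and Cd14 higher, and of the 19 mesenchymal genes tested it called Tagln lower.

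Genes of the same pathway were counted from lists of genes that act with the cathepsins. Of 19 tested partners and substrates in lysosomes, 1 fell with LPS in the APP pair fit. It was Lipa, the lysosomal acid lipase (-1.12 ± 0.17, edgeR adjusted p = 0.00461). Lipa averaged 125 ± 67.2 CPM in APP LPS and 244 ± 98.7 CPM in APP vehicle (SD, n = 5 each), with overlap of the groups and lower values with LPS in 5 of 5 pairs. The log2 change was below 0 for 17 of the 19, with a median of -0.32, beside 58.7% of all genes tested and their median of -0.11. Membrane proteins and carriers of the list were not called, with -0.10 ± 0.11 for Lamp1, -0.20 ± 0.11 for Lamp2 and 0.14 ± 0.11 for the cholesterol carrier Npc2 (edgeR adjusted p = 0.93, 0.715 and 0.864).

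None of the 13 genes for lysosomal sorting and precursors was called in APP in the pair fit, and their median change was -0.07. Psap, the saposin precursor, stood at -0.36 ± 0.12, the progranulin gene Grn at -0.10 ± 0.12 and the mannose 6-phosphate receptor gene M6pr at 0.16 ± 0.15 (edgeR adjusted p = 0.317, 0.93 and 0.911). Of 10 inhibitors, 0 were called, with a median of -0.18, and the cystatin genes Cst3 and Cstb stood at -0.19 ± 0.12 and 0.17 ± 0.13 and Serpinb6a at -0.17 ± 0.14 (edgeR adjusted p = 0.813, 0.858 and 0.874). Of 10 MiT/TFE factors and regulators, 0 were called, with a median of -0.19, and Rragc, a GTPase that carries nutrient signals to them, stood at -0.38 ± 0.14 (edgeR adjusted p = 0.422). Fnip1 and Lamtor1 of that list stood at -0.19 ± 0.21 and -0.04 ± 0.13 (edgeR adjusted p = 0.928 and 0.98). Of the other cathepsin genes 4 were measured and 3 tested, and 0 were called, with -1.38 ± 0.94 for Ctsf, 0.12 ± 0.28 for Ctso and -0.23 ± 0.15 for the catalytically inactive relative Tinagl1 (edgeR adjusted p = 0.832, 0.975 and 0.814). The group fit called no gene of these lists in either genotype.

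**Figure D5:**
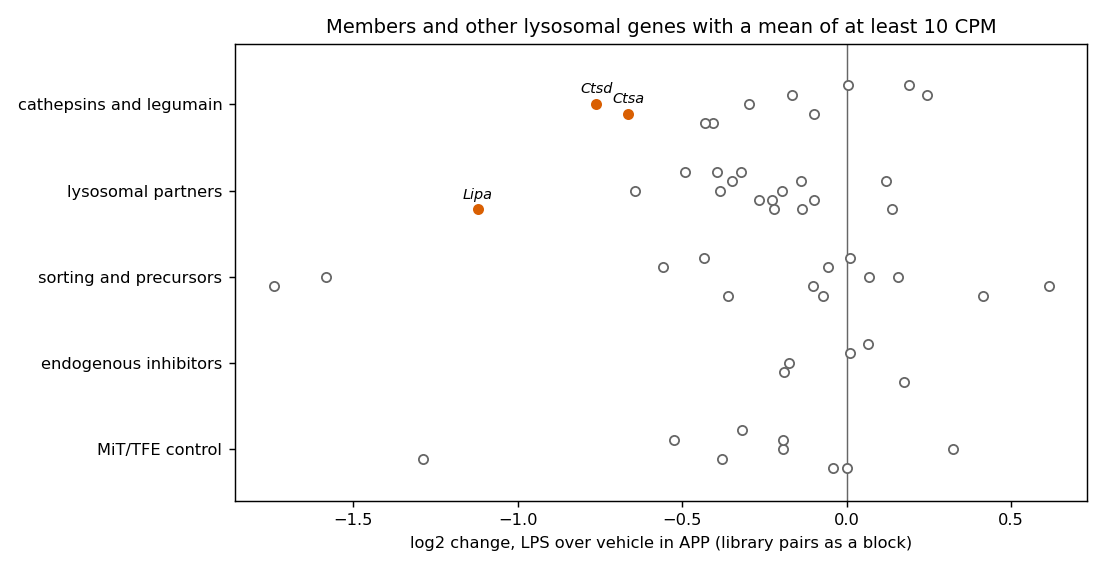
Log2 change with LPS in APP in the pair fit (horizontal axis) for tested genes of the cathepsin set and the pathway lists with a mean of at least 10 CPM, with filled orange points at an edgeR adjusted p under 0.05. Ctsd and Ctsa among the members and Lipa among the lysosomal partners are the filled points.

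Gene positions (GENCODE M21, GRCm38) bear on how reads could be shared. On chromosome 2 Ctsa (164832873 to 164841032, plus strand) overlaps Pltp and Neurl2 on the opposite strand, and Ctsz (174427493 to 174439039, minus strand) overlaps Nelfcd. Ctsb (chromosome 14, 63122462 to 63145923, plus strand) overlaps Fdft1. Whether counting used strand is not given in the sources used here. The partners averaged 24.4, 2.32, 2.49 and 26.1 CPM for Pltp, Neurl2, Nelfcd and Fdft1, against 235, 165 and 2766 CPM for Ctsa, Ctsz and Ctsb, and none was called in APP in the pair fit. Ctsd lies on chromosome 7 (142375911 to 142388038, minus strand) with Gm49369 annotated on the same strand, and Lgmn on chromosome 12 (102394084 to 102439813, minus strand).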

How the data were processed

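The study sequenced 19 libraries of cultured cortical microglia in 4 groups given by the sample titles. Per the labels' protocols, total RNA with an integrity number above 8.5 entered QuantSeq 3′ libraries with molecular identifiers and ERCC spike-ins, read as 100-base single ends. Per the submitters' processing notes, FastQC, Trimmomatic, kallisto and DESeq2 were used. For their versions, the build, the annotation, the use of strand and any collapse of identifiers, the answer is not given in the sources used here. The authors deposited estimated counts, 1 table per library with genes by symbol. Rounding changed 0 of these values, the smallest gene total over libraries was 10, and the tables used here hold 0 ERCC rows.

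Libraries held 13065257 to 31248988 counts (median 21918747), so that 3 counts, the floor for an absent gene, are 0.0960 to 0.230 CPM, for counting error only. Counts were scaled by the trimmed mean of M values. The main fit was edgeR 4.0.16 (quasi-likelihood F test; limma 3.58.1, R 4.3.3) over 19 libraries with 1 coefficient per group, on the 14113 genes kept by filterByExpr, with Benjamini-Hochberg adjustment and a threshold of 0.05. Alternatives were a block by consecutive library numbers or by title number, DESeq2 1.42.0, limma voom with the pair as a random effect, other scaling, no filter, fits without libraries 57 to 60, and each library or pair left out. The scripts were tested on simulated data.

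Deviations from group means correlated at 0.13 to 0.35 in all 5 APP pairs, where the title numbers give the same pairs, and at 0.0959 to 0.292 in the 4 WT pairs. A limit of 0.1 in every pair decided the use of the block. WT LPS replicate 1, numbered 5 by its label but 6 by its file, stayed unpaired. No library was a copy of another in its group (smallest chi-square per degree of freedom 88.0 over 36 pairings). Nothing in the labels ties replicates to separate animals or cultures, and the p-values hence reflect variation among libraries that may be technical.

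Members and gene lists were chosen with earlier results of these data known. All 10 members are named. From the pathway lists 1 gene is not reported here and was left out of its list's counts and median. From the pathway lists the named genes are those called in any contrast of the group or pair fit and the 3 with the highest mean CPM in each list, and for likeness the 3 genes with the highest Pearson r per member, among genes with a mean of at least 10 CPM. Promoter sequences are from RefSeq (GRCm38.p6) and gene positions from GENCODE M21.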

Additional observations from a re-analysis of the deposited data

Results flagged for a closer look

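Within a group of 4 or 5 libraries, 3 of 40 combinations of gene and group had a lowest or highest library whose gap to the next was large for the range of the group, and chance flags about 1 in 20 such groups. Ctsh stood at 85.8 CPM in APP LPS replicate 5, below 167 to 194 CPM in the other 4 libraries of its group. Ctsk stood at 76.1 CPM in WT LPS replicate 5, above 29.9 to 34.2 CPM in the other 4. Ctsl stood at 1657 CPM in WT LPS replicate 5, below 2474 to 2745 CPM in the other 4. All 3 values came from libraries 57 to 60, whose marker sums are given with the results, and the part of those markers was not tested.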

How the results depend on the processing

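The number of genes called depended on the fit, and the cause was not tested. Other size factors (RLE) gave the same counts and no filter on low counts gave 4 in place of 3 averaged over genotypes, with no member changing direction or call under either. Pair fits without libraries 57 to 60, without a pair or with APP libraries alone were chosen after seeing the data. For LPS in APP, where the group fit called 0, DESeq2 called 76, limma voom 9, the replicate block by library pairs 83 (173 without libraries 57 to 60, 63 with APP libraries alone, 13 with their own filter) and the group fit without libraries 57 to 60 called 4. For LPS in WT the counts were 89 with DESeq2, 3 with voom, 21 with the pair block and 32 with the block without libraries 57 to 60. The block by title number called 0 genes for LPS in APP and 0 in WT. Averaged over genotypes they were 178, 68, 211 and 282 against 3, with 15 under a block by title number and 31 without libraries 57 to 60. DESeq2 called 64 genes between APP and WT with vehicle, 69 after LPS, 107 averaged and 99 for the interaction. Without libraries 57 to 60, 1 gene was called after LPS, and 1 for the interaction with the pair block. In WT 1 pair missed the pairing limit. Under the pair block Ctsb was called lower there (-0.53 ± 0.10, edgeR adjusted p = 0.0427; 0.0992 without libraries 57 to 60). Averaged over genotypes the pair block called Ctsd, Ctsb, Ctsa and Lgmn lower (edgeR adjusted p = 0.00066, 0.000864, 0.0184 and 0.0419), beside 0.68% of all genes, and Lgmn was lost without libraries 57 to 60 (edgeR adjusted p = 0.185). Limma voom, with the pair as a random effect, called no member there (limma voom adjusted p = 0.132 for Ctsd).

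Changes that turned their sign were all uncalled. The block by title number gave WT values of 0.099 for Ctsa, 0.075 for Ctsc, 0.22 for Ctsh, -0.30 for Ctsk, 0.0081 for Ctsl and 0.23 for Ctss, and Ctsk was -0.032 in WT without libraries 57 to 60. In APP, Ctsc was 0.034 with voom, 0.0040 with the pair block, 0.0035 with APP libraries alone and 0.0092 with their own filter. Ctsz in APP against WT was -0.058 with voom. Leaving out 1 library or pair gave 0 to 36 called genes for LPS in WT, 0 to 142 in APP, 0 to 282 averaged over genotypes, and 0 to 1 for APP against WT after LPS and for the interaction. For members whose sign turned, the LPS change in WT ran between -0.31 and 0.13 for Ctsa, -0.25 and 0.24 for Ctsc, -0.23 and 0.18 for Ctsh, -0.28 and 0.34 for Ctsk, -0.20 and 0.044 for Ctsl, -0.25 and 0.20 for Ctss, and -0.044 and 0.47 for Ctsz. In APP it ran between -0.19 and 0.20 for Ctsc, -0.25 and 0.35 for Ctsk, -0.18 and 0.0079 for Ctsl, -0.34 and 0.090 for Ctss, and -0.75 and 0.081 for Lgmn. The APP against WT difference of Ctsz ran between -0.085 and 0.13. In the APP pair fit the count moved by over 1.5 times from 83 on leaving out some pairs, to 31 without pair 3 and 4, 9 without pair 7 and 8, 127 without pair 9 and 10, 24 without pair 11 and 12, 52 without pair 51 and 52, 142 without pair 59 and 60.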

Other observations

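Across the 19 libraries, genes outside the set followed some members closely (Pearson r of log2 CPM among 8229 genes, a description, since pairs and libraries 57 to 60 shape it; the value over the other 15 libraries is given second). Ctsd ran closest to Camk1, a calcium-dependent kinase gene (r = 0.93 and 0.82), Lipa (0.93 and 0.87) and the lipid receptor gene Trem2 (0.90 and 0.84). Ctsa ran closest to Lipa (0.91 and 0.80), Smpdl3a (0.91 and 0.75) and Sema4d (0.91 and 0.73). Ctsb followed Cd84 (0.96 and 0.84), Sema4d (0.94 and 0.76) and the ferritin pseudogene Ftl1-ps1 (0.93 and 0.79). The r values span LPS and vehicle libraries together, so genes that fall with LPS in these libraries run together in this measure. That Lipa and Trem2 were called lower with LPS in APP in the fit with pairs, as Ctsd was, is therefore no separate result.

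Other members had other neighbours. Ctss and Lgmn shared Maf, a macrophage transcription factor gene (0.96 and 0.84 for Ctss, 0.96 and 0.92 for Lgmn). For Ctss, Arhgap30 ranked just ahead of Maf (0.96 and 0.76) and Tmem106a followed. For Lgmn, Maf was followed by Ly86 and B3galnt1. Ctsh ran with Lair1 (0.95 and 0.67), C1qb and Gnai2, Ctsl with Clec4n (0.88 and 0.84), the chemokine gene Pf4 and Chmp5, Ctsc with B2m (0.84 and 0.82), B4galt1 and Sdc3, and Ctsz with Cfl1 (0.90 and 0.83), Atp6v1b2 and Dynlt3. Ctsk ran with Thbs2, a matrix glycoprotein gene of fibroblasts (0.90 and 0.93), Rbfox2 (0.93 and 0.90) and Nckap1 (0.88 and 0.83). Among the members themselves the highest value was that of Ctsa with Ctsb (0.93 and 0.82), and Ctsk ran against Lgmn (-0.78 and -0.65).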
